A study of Mus musculus with 14 samples.

Results

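The classical histone deacetylases are the zinc-dependent enzymes of class I (Hdac1, Hdac2, Hdac3 and Hdac8) and class II (Hdac4, Hdac5, Hdac6, Hdac7, Hdac9 and Hdac10). They were taken from the expression table by gene symbol, which it writes in capitals (HDAC1, HDAC2, HDAC3, HDAC4, HDAC5, HDAC6, HDAC7, HDAC8, HDAC9 and HDAC10), keeping the row with the highest mean where a symbol had several, which gave 10 genes of 14217. Each sample held RNA of microglia, which are brain macrophages, with 1000 cells per brain taken from untreated C57BL/6 mice aged 6 to 8 weeks. Of these, 7 libraries came from mice kept under specific-pathogen-free conditions (SPF) and 7 from mice kept without microbes (germ-free, GF), and the cells had been sorted as CD11b+CD45lo. No sex, cage or batch is given in the labels, which also do not say that each library came from a separate animal, so the tests measure only how these libraries scatter, which may in part be technical.

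Lysine acetylation of histone tails loosens the hold of nucleosomes on DNA and is read by bromodomain proteins, and deacetylases remove it. Hdac1, Hdac2 and Hdac3 act in the nucleus as the catalytic subunits of corepressor complexes, whereas the class IIa enzymes (Hdac4, Hdac5, Hdac7 and Hdac9) have weak activity of their own and bring corepressors to Mef2 transcription factors. Class IIb (Hdac6 and Hdac10) acts largely in the cytoplasm. In microglia, Hdac1, Hdac2 and Hdac3 are known for restraining or enabling inflammatory and developmental gene programmes.

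Values are normalized counts from libraries of 3′ ends of polyadenylated RNA, a deposited signal scaled per library. They measure RNA per library rather than protein or enzyme activity, and levels were compared between groups for 1 gene at a time. A difference is the GF mean minus the SPF mean of log2 values, taken after adding a pseudocount of 1.44 normalized counts, which understates the change of low genes. Differences were tested with limma across 8821 genes with a mean of at least 7.22. In that comparison 594 genes, or 6.73%, had a Benjamini-Hochberg adjusted p under 0.05, with 325 (3.68%) higher and 269 (3.05%) lower in GF. The words rose and fell are used only of genes that passed this test.

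No deacetylase of either class passed the test. Among the 4 class I genes, 3 had a lower and 1 a higher estimate in GF, and 1 of the 4 (Hdac1) had an unadjusted p under 0.05 and a lower value, against 11.1% of all genes tested. Of the 6 class II genes 5 were tested, since Hdac7 lay under the minimum mean, and of these 3 had a lower and 2 a higher estimate, with 0 at an unadjusted p under 0.05, against 21.9% of all genes tested in either direction. An exact permutation test with the same adjustment over all genes also called 0 of the 9, beside 348 of the 8821 genes tested. The median log2 difference was -0.45 over class I and -0.14 over the class II genes tested, beside -0.02 over all genes tested, of which 51.5% had an estimate below 0. In none of the 10 genes were the libraries of GF and SPF fully separated, a pattern seen with GF below SPF in 0.884% and with GF above SPF in 1.28% of all genes tested.

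**Figure D1:**
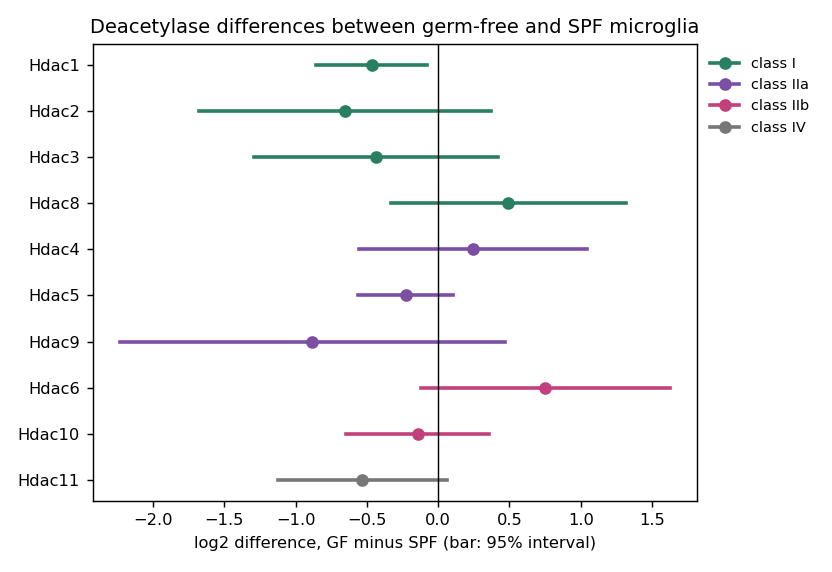
Log2 difference between GF and SPF microglia (horizontal axis) for the 9 classical deacetylases tested and Hdac11, coloured by class, with points for the limma estimate and bars for its 95% confidence interval, against a line at no difference. The interval of Hdac1 runs from -0.85 to -0.08 and lies below 0, and the intervals of the others include 0.

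Hdac1 was the only one of the 10 deacetylases whose value was a whole number of reads in no library, and its sequence is shown for that reason. A processed copy of it, Gm10093 (Hdac1-ps in RefSeq), lies on mouse chromosome 17 at chr17:78491582-78493025 on the plus strand of GRCm38 as a single exon, whereas Hdac1 has 14 exons at chr4:129516104-129542713 on the minus strand. Over an ungapped alignment of 1444 bases, positions 85 to 1528 of the Hdac1 transcript, 1435 bases were identical (99.4%). Alignment ended where the GENCODE copy ends, and the last 510 bases of the 2038-base Hdac1 transcript, the end from which 3′ libraries are made, were not compared. RefSeq carries the copy 516 bases farther, to position 78493541. The 9 substitutions, given as the Hdac1 base, its position from the 5′ end of the transcript and the copy's base, were G426A, C492T, T525A, A544G, C549T, C556T, T566C, T803C and C1254A. The stretch of 90 bases with the most differences, transcript positions 492 to 581 of Hdac1, reads as follows from GENCODE M21, with the 6 differing bases in capitals.
Hdac1: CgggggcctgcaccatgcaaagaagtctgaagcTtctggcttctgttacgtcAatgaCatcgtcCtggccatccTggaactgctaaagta
Gm10093: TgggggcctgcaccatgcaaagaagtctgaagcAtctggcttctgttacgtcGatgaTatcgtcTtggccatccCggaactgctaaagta

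The last 90 aligned bases, positions 1439 to 1528 near the end of the coding sequence, were the same in both and are shown because a read inside them could not be placed by sequence alone.
Hdac1 and Gm10093: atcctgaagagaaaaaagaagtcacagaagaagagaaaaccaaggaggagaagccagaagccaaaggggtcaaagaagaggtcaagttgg

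In the deposited values Hdac1 was a whole multiple of 1 read in 0 of 14 libraries, within 0.01 of a read. Only 210 of the genes tested (2.38%) were whole in no library, while 63.5% were whole in all. Hdac5 was whole in 8 libraries, Hdac10 in 10 and each of the other 7 deacetylases in all 14. How reads with several placements were counted is not stated here in any source. Read equivalents of Hdac1 included 73.33 in SPF replicate 2, 134.92 in SPF replicate 5 and 44.58 in GF replicate 1. The Hdac1 value is uncertain to the extent that reads of Gm10093 or of any other placement entered it. The part of this in the group difference was not tested.

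Hdac1, a catalytic subunit of the Sin3, NuRD and CoREST complexes, ranged in SPF from 57.6 to 115.4 normalized counts with a median of 86.7. In GF it ranged from 45.0 to 74.8 with a median of 66.5. All 7 GF libraries lay below the SPF median and 5 of the 7 SPF libraries lay above every GF library, but the groups overlapped. The means were 86.5 ± 21.7 and 61.5 ± 11.5 (SD, n = 7 each). The log2 difference was -0.47 (SE 0.19, 95% interval -0.85 to -0.08), a fold of 0.724 on this scale with bounds of 0.553 and 0.946, with an adjusted p of 0.141. The exact two-sided permutation test gave 0.0216 before and 0.152 after adjustment over all genes.

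Hdac2, which shares these complexes with Hdac1, ranged from 9.46 to 22.1 normalized counts in SPF with a median of 15.5. In GF it ranged from 0 to 34.9 with a median of 12.9. Both the lowest and the highest of the 14 libraries were GF: replicate 2 was at 0, which at its depth allows up to 2.97 normalized counts (a floor of 3 reads, for counting error only), and replicate 3 stood above every SPF library. The log2 difference of -0.65 (SE 0.50, 95% interval -1.68 to 0.37, adjusted p = 0.476) did not exceed this spread. It was -0.94 without GF replicate 3 and -0.17 without GF replicate 2, and neither passed.

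Hdac3, the catalytic subunit of the NCoR and SMRT corepressors, ranged from 6.06 to 15.4 normalized counts in SPF with a median of 10.9. In GF the range was 1.99 to 13.9 with a median of 8.07, so most libraries of both groups shared the same span. Its log2 difference was -0.44 (SE 0.42, 95% interval -1.29 to 0.42, adjusted p = 0.585). The interval covers both no difference and one larger than that of Hdac1. The estimate was -0.20 without GF replicate 5 and -0.71 with log2 depth in the model, and neither passed.

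Hdac8, which works without these corepressor complexes and deacetylates the cohesin subunit Smc3, was the class I gene with the opposite sign. It ranged from 4.24 to 21.3 normalized counts in SPF with a median of 9.19, and from 5.93 to 23.2 in GF with a median of 15.8. Most GF libraries, 5 of 7, lay above the SPF median, and the ranges overlapped over nearly their whole length. The log2 difference was 0.49 (SE 0.40, 95% interval -0.33 to 1.32, adjusted p = 0.513). It was 0.16 with log2 depth in the model and 0.76 after quantile normalization, and neither passed.

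**Figure D2:**
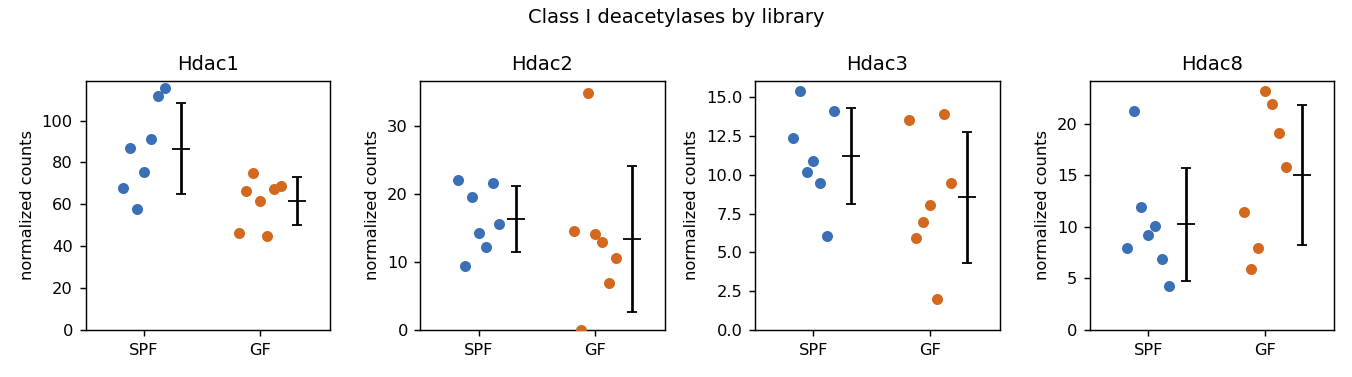
Normalized counts of Hdac1, Hdac2, Hdac3 and Hdac8 in each SPF and GF library, with a dot per library and bars for the mean ± SD of 7 libraries. The GF dots of Hdac1 all lie below the SPF median of 86.7, and GF replicate 3 stands alone at 34.9 for Hdac2.

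Among the class IIa genes, which shuttle between nucleus and cytoplasm, Hdac5 was the most precisely measured. It ranged from 112.6 to 231.6 normalized counts in SPF with a median of 151.9, and from 90.6 to 170.06 in GF with a median of 143.5. The groups overlapped over most of the GF range, and the means were 159.9 ± 40.5 and 135.0 ± 25.3 (SD, n = 7 each). With an SE of 0.16 its log2 difference of -0.23 was the most closely bounded of the 9 (95% interval -0.57 to 0.11, adjusted p = 0.439), so a GF level below 0.676 or above 1.08 of the SPF level lies outside the 95% interval. The estimate was -0.13 without SPF replicate 1 and -0.14 without GF replicate 1.

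Hdac4 was split within the GF group. In SPF it ranged from 7.77 to 24.8 normalized counts with a median of 16.4, and in GF from 5.21 to 37.8 with a median of 25.7. The upper 4 GF libraries stood above every SPF library, while the other 3 lay below the SPF median. The mean difference of 0.25 on the log2 scale (SE 0.39, 95% interval -0.55 to 1.05, adjusted p = 0.766) was smaller than this spread. With 1 library left out it ran from 0.086 without GF replicate 5 to 0.51 without GF replicate 6, and it was also under 0.10 without SPF replicate 7 or GF replicate 4.

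Hdac7 was near the limit of detection in both groups. Hdac9 was low mainly in GF, with 3 read equivalents in the median library against 10 in SPF. Hdac9 ranged from 0 to 29.6 normalized counts in SPF with a median of 8.84, and from 0 to 15.6 in GF with a median of 3.15. In SPF, replicates 2 and 6 held the highest values, 29.6 and 28.6. The log2 difference was -0.88 (SE 0.66, 95% interval -2.23 to 0.47, adjusted p = 0.461). Adding log2 depth to the model changed the estimate to -1.60 (adjusted p = 0.189), and it was -1.34 without SPF replicate 4 and -0.57 without GF replicate 2. Hdac7 ranged from 0 to 7.65 in SPF with 1 library at 0, and from 0 to 5.97 in GF with 2 libraries at 0, and the medians were 4.73 and 3.03. At 3 to 4 read equivalents in the median library of a group, a difference in Hdac7 was not detectable at this depth. Hdac7 also overlaps the protein-coding gene Slc48a1 on the opposite strand in GENCODE M21, and without a stated use of strand reads of both cannot be told apart.

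The class IIb genes had estimates of opposite sign. Hdac6, a deacetylase of α-tubulin and of Hsp90, ranged from 1.35 to 35.7 normalized counts in SPF with a median of 19.0, and from 15.8 to 39.9 in GF with a median of 31.8. Of the GF libraries, 6 of 7 lay above the SPF median and 3 above every SPF library, and SPF replicate 5, at 1.35, stood apart below. The log2 difference was 0.75 (SE 0.42, 95% interval -0.12 to 1.63, adjusted p = 0.310). It came to 0.31 (adjusted p = 0.618) without SPF replicate 5 and to 0.34 (adjusted p = 0.729) with log2 depth in the model.

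Hdac10, which in biochemical work deacetylates acetylated polyamines, was the tested gene with the smallest difference. It ranged from 27.7 to 59.1 normalized counts in SPF with a median of 44.2, and from 19.9 to 56.0 in GF with a median of 39.5. The groups covered nearly the same span. The log2 difference was -0.14 (SE 0.24, 95% interval -0.64 to 0.36, adjusted p = 0.781), and without GF replicate 3 it was 0.0046. Its other values with 1 library left out lay below 0, down to -0.24 without SPF replicate 6.

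**Figure D3:**
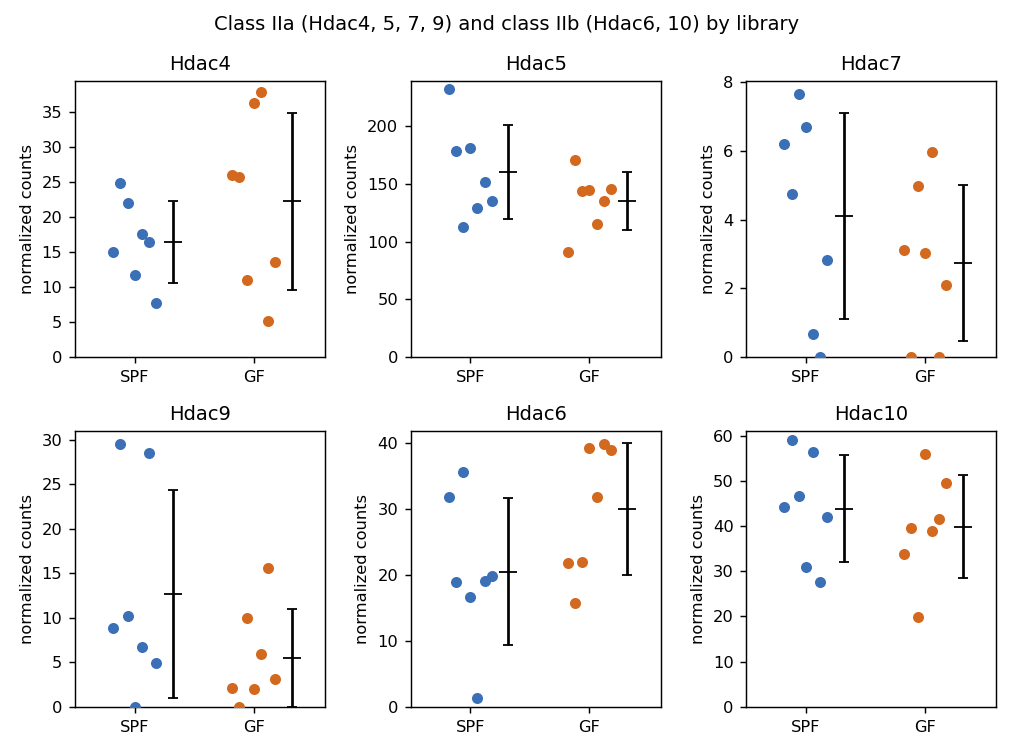
Normalized counts of the 6 class II deacetylases in each SPF and GF library, with a dot per library and bars for the mean ± SD of 7 libraries. Hdac4 shows 4 GF libraries above the SPF maximum of 24.8, and Hdac6 shows SPF replicate 5 at 1.35 below all others.

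Both Hdac6 and Hdac8, the tested deacetylases with higher estimates in GF besides Hdac4, lie on the X chromosome. Of 210 X-linked genes tested, 3 rose (1.43%) and 12 fell (5.71%), beside 3.68% and 3.05% of all genes tested, with a median log2 difference of -0.12. Xist, the RNA that coats the inactive X chromosome, ranged from 93.2 to 201.6 normalized counts in SPF and from 8.68 to 49.4 in GF, without overlap. Its log2 difference was -2.36 (SE 0.29, adjusted p = 1.18e-05). The labels give no sex, and the table held 0 genes placed on the Y chromosome by RefSeq, so these could not be used to check it. The part of this in the values of Hdac6, Hdac8 or any other gene was not tested.

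Hdac11, the single class IV enzyme and the remaining zinc-dependent deacetylase, is given for comparison. It ranged from 28.3 to 51.8 normalized counts in SPF with a median of 35.8, and from 8.33 to 41.7 in GF with a median of 30.5. Its log2 difference was -0.53 (SE 0.29, 95% interval -1.13 to 0.06, adjusted p = 0.290). Among the NAD-dependent sirtuins 5 of 7 were tested, 0 rose and 0 fell, with 3 higher and 2 lower, beside 51.5% lower among all genes tested. Sirt2, a cytoplasmic tubulin deacetylase, had the smallest p of these, at 0.30 higher in GF on the log2 scale (SE 0.12, adjusted p = 0.129).

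The scatter of the deacetylases stood in different ratios to what read counting alone would give. For Hdac3 in SPF the SD between libraries, 3.11 normalized counts, was close to the 3.10 expected from counting. In SPF the SD was 1.30 times the SD expected from counting for Hdac2, 1.84 times for Hdac8 and 3.53 times for Hdac9. For Hdac1 it was 2.52 times in SPF and 1.39 times in GF, and for Hdac5 3.46 and 2.06 times. The expected SD takes values as whole reads, which Hdac1 was in 0 libraries and Hdac5 in 8, so the ratios of these genes are approximate. In Hdac2, Hdac3 and Hdac4 the ratio was higher in GF, at 2.77, 1.37 and 2.54 times. The median library held 90.2 read equivalents of Hdac1 in SPF and 61.1 in GF, against 13 and 8 of Hdac3.

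Summed over a class, class I came to between 99.3 and 149.3 normalized counts in SPF, with a median of 122.9, and between 78.4 and 124.6 in GF, with a median of 104.6. Class II came to between 212.0 and 337.7 in SPF and between 177.5 and 281.4 in GF, with medians of 243.6 and 237.8. The groups overlapped in both sums. The ratio of each pair of tested deacetylases within a library was also compared between groups, and 0 of 36 passed an exact permutation test after adjustment over the pairs, with 4 at an unadjusted p under 0.05. The ratio of Hdac1 to Hdac6 was among these 4, lower in GF by -1.22 on the log2 scale (SE 0.57, exact permutation p = 0.0297, adjusted p = 0.273), and by -0.76 without SPF replicate 5, an alternative chosen after seeing the data.

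Over the 14 libraries, after subtracting the mean of each group, the log2 values of 8820 other genes were compared with Hdac1. The gene most like it was Hmg20b, a subunit of the CoREST complex, with Pearson's r = 0.906 (permutation p = 2e-05, adjusted p = 0.0378) and Spearman's rho = 0.930 (permutation p = 3e-05). Without SPF replicate 3 and GF replicate 5, the libraries farthest from the median of Hdac1, r was 0.847. It was 0.968 within SPF and 0.807 within GF, 7 libraries each. Next came Ap3d1, a subunit of an endosomal adaptor complex (r = 0.897, rho = 0.798, r = 0.816 without those libraries), and Usp12, a deubiquitinase (r = 0.883, rho = 0.877, r = 0.851 without them), both with an adjusted permutation p of 0.0378. In all 7 genes passed. The unadjusted p of 2e-05 and 3e-05 rest on very few of the 100000 random permutations, so a pass at 0.0378 could turn on the draw. The permutation also treated the 14 values as free although group means had been subtracted, which can make p too small. The points share library and depth. Hmg20b itself did not pass between groups, at -0.41 on the log2 scale (adjusted p = 0.129).

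**Figure D4:**
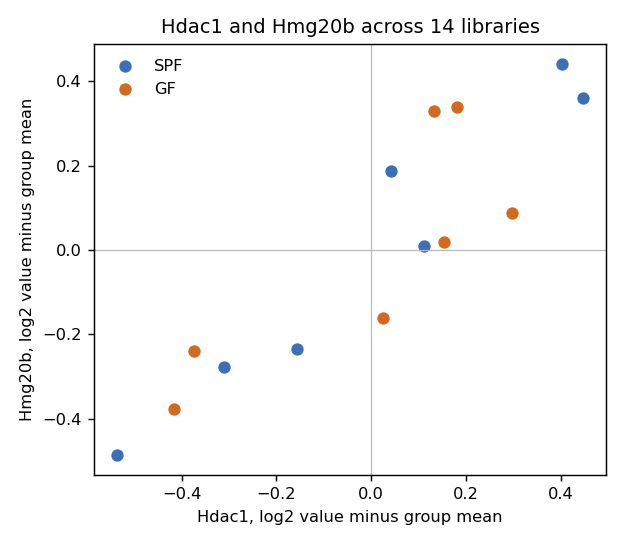
Log2 values of Hmg20b against Hdac1 in the 14 libraries after subtracting the mean of each group, with colours for SPF and GF. The points rise together, with r = 0.906 over all libraries.

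Genes that work with the deacetylases were followed through 11 lists of complex subunits, export adaptors, kinases, acetyltransferases, acetyl-lysine readers, substrates and sirtuins. Of the 123 genes tested in them 0 rose and 6 fell, or 4.88% against 6.73% of all genes tested, and their median log2 difference was -0.11. At an unadjusted p under 0.05, 16 of the 123 were lower and 10 higher, beside 11.1% and 10.8% of all genes tested. Exact permutation with adjustment over all genes called 3 of the 123, beside 348 of the 8821 genes tested.

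In the corepressor complexes of class I, the single call was in NuRD, a nucleosome-remodelling deacetylase complex. There 1 of 10 genes tested fell, beside 3.05% of all genes tested. This was Cdk2ap1, a small subunit of the complex, which ranged from 113.3 to 156.3 normalized counts in SPF and from 61.3 to 113.2 in GF. The groups did not overlap, and the log2 difference was -0.68 (SE 0.16, adjusted p = 0.00763). The remodeller Chd4 was at 0.11 (adjusted p = 0.569). In the Sin3 complex 0 of 14 were called, with 7 higher and 7 lower, and its scaffold Sin3a was at 0.07 (adjusted p = 0.895). The smallest p in this list was that of the subunit Sap25, at -0.58 (SE 0.24, adjusted p = 0.150). In NCoR and SMRT 0 of 7 were called, and the scaffold Ncor1 was at -0.14 (adjusted p = 0.704), while the subunit Coro2a, with the smallest p, was at 0.70 (SE 0.32, adjusted p = 0.192). Of the histone-binding subunits shared by these complexes 0 of 2 were called, and Rbbp4 was at -0.19 (SE 0.14, adjusted p = 0.460).

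The CoREST and MiDAC complexes, which hold Hdac1 or Hdac2 without the Sin3 or NuRD scaffolds, had 9 of 10 genes with a lower estimate, beside 51.5% of all genes tested, and a median of -0.37. None of them passed limma's adjusted test, and 4 of the 10 were lower at an unadjusted p under 0.05, beside 11.1% of all genes tested. Phf21a, a CoREST subunit that binds unmethylated histone H3, was at -0.46 (SE 0.17, adjusted p = 0.101). It passed in 1 of 29 alternative settings, at 0.0495 once each library was scaled to the same total, and its adjusted p reached 0.212 in another. The demethylase Kdm1a was at -0.04 (adjusted p = 0.969) and the scaffold Rcor1 at -0.08 (adjusted p = 0.887).

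The clearest falls were in the adaptors that bind phosphorylated class IIa enzymes and hold them in the cytoplasm. Of the 9 genes tested among class IIa partners and export adaptors 2 fell and 0 rose, beside 3.05% and 3.68% of all genes tested, and 8 had a lower estimate, beside 51.5%. Ywhaz ranged from 70.6 to 142.7 normalized counts in SPF, with a median of 104.3, and from 28.4 to 51.5 in GF, with a median of 36.3. Every GF library lay below every SPF library, and the log2 difference was -1.41 (SE 0.20, adjusted p = 7.65e-05). Ywhae ranged from 424.8 to 606.7 in SPF, with a median of 526.9, and from 186.9 to 391.1 in GF, with a median of 281.4. It too was without overlap, at -0.92 (SE 0.13, adjusted p = 0.00012).

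Other adaptors of the same family did not pass: Ywhab was at -0.37 (adjusted p = 0.0836), Ywhag at -0.04 (adjusted p = 0.923), Ywhah at 0.06 (adjusted p = 0.831) and Ywhaq at -0.05 (adjusted p = 0.953). These adaptors bind many phosphorylated proteins besides deacetylases. Of the Mef2 factors bound by class IIa, Mef2a was at -0.64 (adjusted p = 0.115) and Mef2c, which microglia use as a lineage factor, at -0.21 (adjusted p = 0.396). Among kinases that phosphorylate class IIa enzymes, 0 of 13 were called, and Camk2d had the smallest p at -1.17 (SE 0.38, adjusted p = 0.0598). Camk2d passed in 4 of the 28 alternative settings that tested it. Its adjusted p ran from 0.0213 without SPF replicate 1 up to 0.153.

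**Figure D5:**
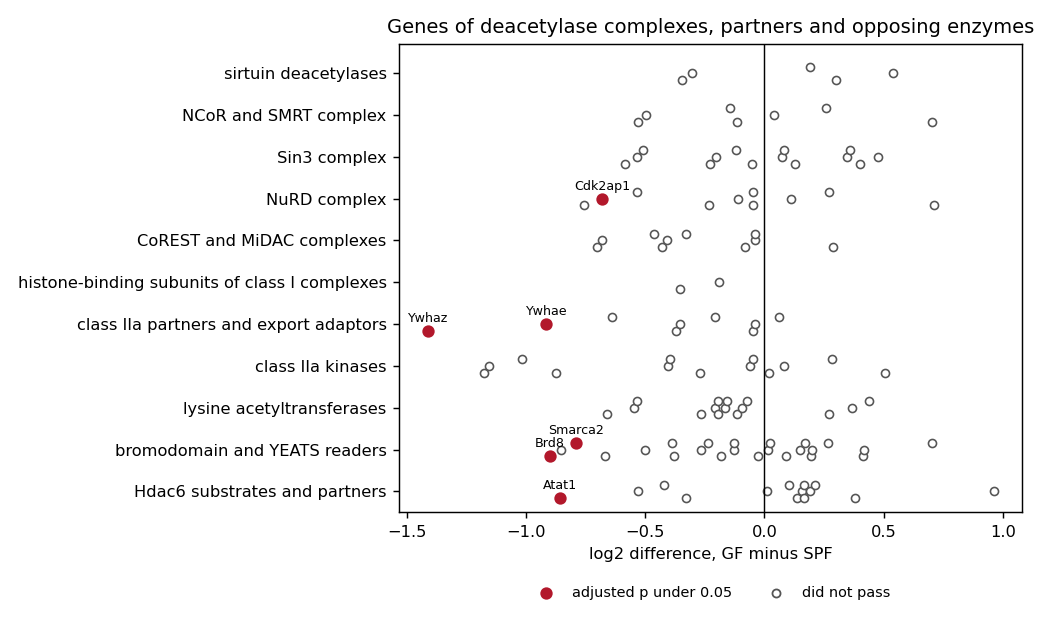
Log2 difference between GF and SPF microglia (horizontal axis) for each of the 123 partner genes tested, with 1 row per list and 1 point per gene. The 6 filled and named points passed the adjusted test and all lie below 0, from -1.41 for Ywhaz to -0.68 for Cdk2ap1.

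The enzymes that add acetyl groups showed 0 calls among 15 tested, with 12 lower and 3 higher, beside 51.5% lower among all genes tested, and a median of -0.17. The coactivators Crebbp and Ep300 were at -0.27 (adjusted p = 0.417) and -0.20 (adjusted p = 0.590), and Kat6a had the smallest p at 0.37 (SE 0.15, adjusted p = 0.132). Among proteins that read the mark, 2 of 24 fell, beside 3.05% of all genes tested. Brd8, a bromodomain subunit of the Tip60 acetyltransferase complex, averaged 51.5 ± 9.47 normalized counts in SPF and 28.3 ± 11.4 in GF (SD over 7 libraries), and its log2 difference was -0.90 (SE 0.25, adjusted p = 0.0252). Smarca2, an ATPase of chromatin-remodelling complexes, averaged 149.6 ± 43.2 and 90.8 ± 39.8, with -0.79 on the log2 scale (SE 0.24, adjusted p = 0.0499). Neither passed the exact permutation test after adjustment (0.0571 and 0.168). Brd8 lost its call without SPF replicate 2, SPF replicate 7 or GF replicate 5, and Smarca2 without any of 11 single libraries, with adjusted p up to 0.0631 and 0.109.

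Of 14 substrates and partners of Hdac6 tested, 10 had a higher and 4 a lower estimate, beside 51.5% lower among all genes tested. Among the 10 were the related α-tubulin genes Tuba1a, Tuba1b and Tuba1c. Tuba1a and Tuba1b had nearly equal means, 302.9 and 301.6 in SPF and 339.2 and 344.0 in GF. Whether they share reads was not tested, so the 10 may not be separate signals. In this list 1 fell and 0 rose, beside 3.05% and 3.68% of all genes tested. The one that fell was Atat1, the α-tubulin acetyltransferase whose mark Hdac6 removes, which averaged 51.9 ± 17.7 normalized counts in SPF and 27.5 ± 8.11 in GF (SD over 7 libraries). Its log2 difference was -0.86 (SE 0.25, adjusted p = 0.0406), and the call was lost without any of 10 single libraries, with adjusted p up to 0.0979, and under the exact permutation test at 0.0787. The chaperone Hsp90ab1, a substrate, was at 0.38 (adjusted p = 0.0769).

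Some measures of depth and of other cell types differed between the groups. Depth entered the model only as an alternative setting, in which 406 of all genes passed, and the part of other cell types in the values above was not tested. Depth was 907204 to 1634063 read equivalents in SPF and 679900 to 1190040 in GF (exact permutation p = 0.0787), and 21.9% ± 1.58 against 25.1% ± 1.54 of genes were at 0 (exact permutation p = 0.00175). The summed level of 15 of 15 microglia markers was 60627 to 71179 normalized counts in SPF and 70156 to 79435 in GF, but its members went both ways. Of these markers 4 rose and 4 fell, beside 3.68% and 3.05% of all genes tested, with a median log2 difference of -0.12. The 6 of 10 oligodendrocyte markers in the table summed to 265.1 to 317.5 and 209.5 to 272.4, a sum of which Cnp made up the most with means of 193.1 and 164.3. Mbp went against it, at 0.61 on the log2 scale (adjusted p = 0.169). The 7 of 10 endothelial and mural markers summed to 78.7 to 116.4 and 22.5 to 83.8, with the endothelial marker Cldn5 at 0 in every library. Pecam1 made up the most of this sum, with means of 70.7 in SPF and 50.9 in GF. Each of these 3 sums differed between groups, all with an adjusted exact permutation p of 0.00816 over 7 lists. The sums of the other 4 lists, of neurons, astrocytes, border macrophages and monocytes, and lymphocytes and neutrophils, did not pass, with adjusted p from 0.249 to 0.670. Slc1a3 made up nearly all of the astrocyte sum, with means of 217.4 in SPF and 191.8 in GF. Cd79b did so for lymphocytes and neutrophils, with means of 91.0 and 84.2. The 9 of 11 neuron markers reached 30.6 in SPF and 23.2 in GF, and the 9 of 11 border macrophage and monocyte markers reached 172.9 in SPF and 2150 in GF, the latter in GF replicate 1. Of the 3 border macrophage and monocyte markers tested none passed limma's test. Among them H2-Aa and Cd74 had higher estimates in GF and reached 930.6 and 1195 in their highest library, GF replicate 1. Their GF means of 134.9 and 261.4 lay largely in that library. The median sums of the list were close, at 99.9 in SPF and 105.2 in GF. Mrc1 went the other way, at -1.91 on the log2 scale (limma adjusted p = 0.0897). In bulk samples fewer cells of a type and less RNA per cell cannot be told apart.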

How the data were processed

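The deposited table gives 1 signal per RefSeq transcript and library, called normalized counts here. The aligner was TopHat and the genome build mm9, according to the submitters' processing notes. No source used here gives the method of counting, of scaling, or of treating strand and molecular tags. Library totals lay between 1356633 and 1520780. Between 84.5% and 86.7% of positive values per library were whole multiples of a step, taken as 1 read. Depth in read equivalents was the sum over the 1 row kept per symbol, divided by this step. The remaining values were not whole, so no count model was run.

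The row with the highest mean was kept for each symbol, and identical rows counted once. R 4.3.3 and its package limma 3.58.1, fitting the spread as a trend on the mean, tested log2(value + 1.44) for genes with a mean of at least 7.22, with Benjamini-Hochberg adjustment over 8821 genes and a threshold of 0.05. The code was tested on simulated data. Exact permutation used 3432 divisions of the libraries, with 0.000583 as its smallest two-sided p, and correlations 100000 permutations (SciPy 1.17.1, pandas 2.3.3, Python 3.11.15).

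Sequences and coordinates are from GENCODE M21 on GRCm38, a later build than mm9, and were not joined to the files by position. Members and lists were chosen with earlier results of these data known. All members are named, as are Hdac11, the partner genes that passed or else had the smallest p in a list, and the 3 genes most like Hdac1 and Hdac5. Other genes with values were chosen after the values were seen.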

Additional observations from a re-analysis of the deposited data

Results flagged for a closer look

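Hdac2 in GF replicate 3 stood at 34.9 normalized counts, farther above the other 6 GF libraries than a Dixon test at the 95% level allows. It was the 1 such value in 20 groups of libraries examined (10 genes in 2 groups), and chance flags about 1 in 20 groups.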

How the results depend on the processing

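Across 29 alternative settings 0 deacetylases of class I and 0 of class II passed in any. The log2 difference of Hdac1 ran from -0.56 to -0.39 with adjusted p from 0.0765 to 0.301. Hdac10 was the single deacetylase whose direction turned, to 0.0046 without GF replicate 3, and with 1 library left out its value ran from -0.24 to 0.0046. The calls of Ywhaz, Ywhae and Cdk2ap1 held in all 29 settings. The 6 calls among partner genes became 3 with log2 depth as a covariate and between 3 and 7 with 1 library left out, 3 of them without SPF replicate 7. The 594 calls among all genes became 320 without a mean trend, 319 without SPF replicate 2, GF replicate 1 and GF replicate 6 together, and between 412 and 627 with 1 library left out. The replicate numbers did not pair the samples, since same-numbered libraries correlated between -0.0569 and 0.0470 and 0 of 7 correlated best with their own number. A replicate block gave 526 calls among all genes, 5 among partner genes and 0 among class I and class II, with an adjusted p of 0.157 for Hdac1. Depth limits the low genes: Hdac3, Hdac7, Hdac8 and Hdac9 in both groups, and Hdac2 in GF, had between 3 and 13 read equivalents in the median library.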

Other observations

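The genes most like Hdac5 over the 14 libraries, after subtracting the mean of each group, were Smox, a spermine oxidase (r = 0.855, rho = 0.855, adjusted permutation p = 0.397), AI462493 (r = 0.810, adjusted permutation p = 0.663) and Clec16a (r = 0.784, adjusted permutation p = 0.663). None passed. Without GF replicate 1 and SPF replicate 3 the values of r were 0.821, 0.620 and 0.579.

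Among the 36 pairs of tested deacetylases, 0 correlated over the 14 libraries after adjustment. Hdac8 and Hdac10 had the highest Pearson's r at 0.579 (permutation p = 0.0308, adjusted p = 0.911), with Spearman's rho of 0.701 (permutation p = 0.00732, adjusted p = 0.181). Without the 2 libraries farthest from the median r was 0.629.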
